A study of Capra hircus with 12 samples.

Results

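Among the miRNAs counted in the secondary hair follicles (SHFs) of cashmere goats, 37 of the 376 listed entries carry only a number (novel_71, novel_54 and so on) in place of a goat miRNA name. They were taken by this form of their name alone, and the other 339 entries have goat miRNA names. All 12 small RNA libraries come from SHFs of Liaoning cashmere goats aged 1.5 years, dissected from the skin over the scapula, and each of 6 months has 1 female and 1 male library. Telogen is covered by February and March with 4 libraries, catagen by November and December with 4, early anagen by May with 2 and mid-anagen by September with 2. No group carries a treatment, a transgene or a mutation, and no untreated control exists beside the months themselves. The methods of the study name goats of both sexes at each time point, but how they were combined into libraries is not given in the sources used here. The p-values therefore measure the spread between libraries, which may in part be technical.

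A miRNA is a short RNA that pairs with messenger RNAs, mainly through its seed near the 5′ end, and lowers their translation or stability. It is cut in 2 steps from a hairpin precursor, first in the nucleus and then in the cytoplasm. Programs such as mirDeep2 and miREvo propose new miRNAs where reads stack up on a genomic hairpin the way these cuts would leave them, and such a proposal remains a candidate until its precursor and arms are supported by ample reads. In the SHF, the small follicle that grows the cashmere, growth (anagen), regression (catagen) and rest (telogen) follow the seasons. The sequences, genome positions and precursors of the numbered candidates were not analysed here, so no role or target can be given for any of them, and they are described by their counts.

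The libraries held 3135292 to 5788032 counts each. At that depth a floor of 3 counts corresponds to a TPM between 0.518 and 0.957, where the deposited TPM is the count scaled to the library's total (CPM) and is not divided by length. The miRNAs of epithelium listed in the tables (6 entries, led by miR-203) summed to a TPM of 56735 to 96687 and those of mesenchyme (8 entries, led by miR-143-3p) to 110441 to 140115. Endothelial miR-126 arms summed to 8819 to 12699, muscle miRNAs (6 entries) to 1902 to 3614, leukocyte miRNAs (4 entries) to 393 to 664 and erythrocyte miRNAs (2 entries) to 5.41 to 115. Among these marker entries, miR-206 had 0 counts in 1 library and all the others were counted in every library.

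The numbered candidates were rare as a group. The study also counts miR-203 among its candidates, but the tables list it under a goat name. It is therefore not a member here, although its TPM was 43797 to 82083, and the shares and ranks below hold only without it. Together they held 67145 counts, or 0.124% of all counts. None reached a TPM of 500 in 2 libraries, a level that 83 goat-named miRNAs reached. Their median of the mean TPM was 3.25, against 24.0 for the goat-named miRNAs. By mean TPM, 3 candidates lay above 100, 10 between 10 and 100, 19 between 1 and 10, and 5 at or below 1. The most abundant, novel_71, ranked 83 of all 376 entries, and novel_673 ranked last.

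novel_54 and novel_71 together made up the larger part of this signal. novel_54 held 25.2% of the candidates' counts and novel_71 a further 25.2%, followed by novel_587 with 10.9% and novel_98 with 7.51%. The share of a library's counts that fell on the candidates ranged from 0.0973% in the female March library (95% Wilson interval 0.0946% to 0.1000%) to 0.189% in the female May library (0.185% to 0.193%). May libraries had a mean share of 0.175% ± 0.0196 (SD, n = 2) and telogen libraries of 0.123% ± 0.0304 (SD, n = 4). For catagen the mean was 0.115% ± 0.0145 (SD, n = 4), and for September 0.108% ± 0.00654 (SD, n = 2). Both May libraries lay above every other library, the male May library at 0.161% only just above the male March library at 0.159%. Without novel_54 and novel_71 the group means were 0.0743% in May, 0.0661% in September, 0.0622% in catagen and 0.0547% in telogen, so most of the excess in May was counts of these candidates. The intervals cover counting error only, since the reads carry no molecular identifiers.

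**Figure D1:**
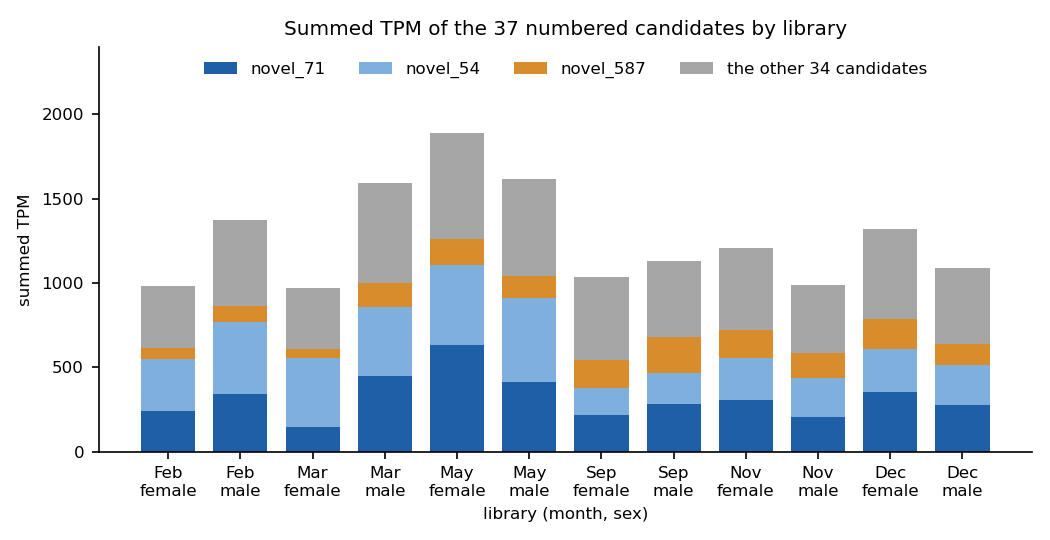
Summed TPM (y axis) of the numbered candidates in each of the 12 libraries (x axis, by month and sex), stacked as novel_71, novel_54, novel_587 and all other candidates. The female May library is the highest at 1891, and the female March library is the lowest at 973.

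Support by counts was graded by fixed cuts at 100, 10 and 3 counts, which do not mark gaps between the candidates. For example, novel_148 was under 10 counts only in the female March library, with 9. In every one of the 12 libraries, 7 candidates had at least 100 counts: novel_71, novel_54, novel_587, novel_98, novel_100, novel_494 and novel_24. With at least 10 counts in all 12 libraries there were 17, which adds novel_120, novel_704, novel_130, novel_697, novel_131, novel_176, novel_463, novel_145, novel_157 and novel_182. With more than 3 counts in all 12 there were 22, adding novel_148, novel_206, novel_218, novel_791 and novel_566. For comparison, 249 of the 339 goat-named miRNAs had at least 10 counts in all 12 libraries. Per library, 35 to 37 candidates were counted at least once, and 32 were counted in all libraries.

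Of the candidates, 5 had 0 counts in at least 1 library. novel_673 was at 0 in 5 libraries, novel_286 in 4, novel_599 in 2, and novel_574 and novel_421 in 1 each. Except for novel_599, these are the 4 rarest by mean TPM, with novel_237 next above them. novel_673 had 2, 4, 0 and 7 counts in telogen (February female and male, then March female and male), 7 and 4 in May, 0 and 1 in September, and 0, 0, 0 and 1 in catagen (November, then December). Only the male February, the male March and both May libraries exceeded the floor of 3 counts. novel_421 had 0, 5, 2 and 1 counts in telogen, 1 and 7 in May, 1 and 5 in September, and 5, 1, 1 and 4 in catagen, and was above the floor in 5 libraries with no order by month. novel_286 had 0, 0, 2 and 8 counts in telogen, 11 and 2 in May, 6 and 0 in September, and 1, 3, 0 and 2 in catagen. For novel_574 the counts were 2, 3, 0 and 2 in telogen, 3 and 1 in May, 3 and 3 in September, and 10, 3, 5 and 1 in catagen. Only the female libraries of November and December were above the floor for novel_574. novel_237 was counted in all libraries, with 1, 4, 3 and 5 in telogen, 3 and 2 in May, 6 and 13 in September, and 6, 5, 3 and 2 in catagen. A count of 0 at this depth allows a TPM of up to 0.518 to 0.957, depending on the library, so absence was not shown for any of the 5.

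**Figure D2:**
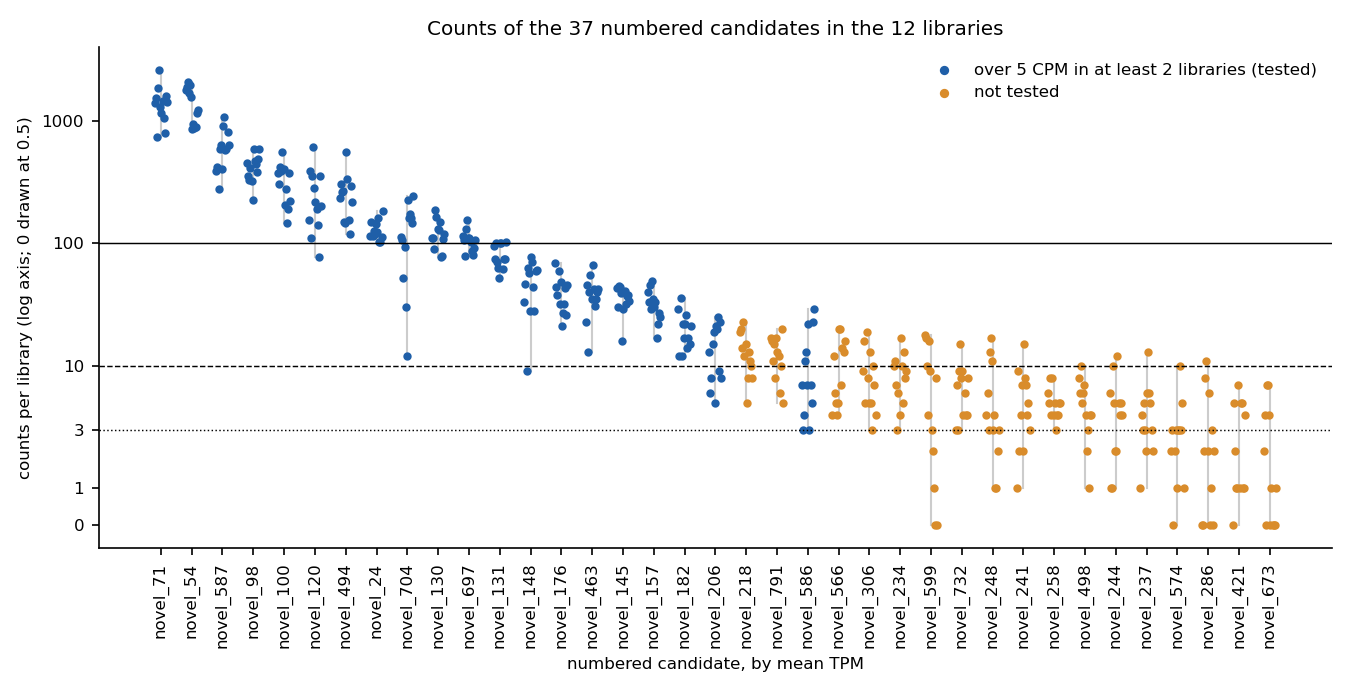
Counts (y axis, log scale, with 0 drawn at 0.5) of each of the 37 candidates (x axis, by falling mean TPM), 1 point per library. Solid, dashed and dotted lines mark 100, 10 and 3 counts. The 7 candidates with all points at or above 100 are among the 8 at the left, with novel_120 as the other one.

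How far the libraries differed was set against counting error with an index, the chi-square of the 12 counts against equal shares of the library totals divided by its degrees of freedom, which is near 1 where counting error alone acts and rises with depth for a given relative spread. novel_71 (index 240), novel_54 (190), novel_120 (114) and novel_587 (78.1) varied the most by this measure. Under an index of 2 were 6 candidates: novel_131, novel_145, novel_182, novel_234, novel_498 and novel_258. The flattest by TPM was novel_131, at 17.8 ± 1.61 (SD, n = 12 libraries) with an index of 0.673. Its TPM was 16.4, 16.7, 19.8 and 17.2 in telogen, 15.2 and 16.6 in May, 18.7 and 19.5 in September, and 17.9, 19.3, 16.5 and 19.99 in catagen. From 52 to 103 counts per library, the 12 values of novel_131 spread no more than counting error alone would give.

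Phases were compared by edgeR's quasi-likelihood test on TMM-scaled counts, in 1 fit of all 12 libraries over the 300 entries with more than 5 CPM in at least 2 libraries. Of the candidates, 20 passed this filter: the 17 with at least 10 counts throughout, and novel_148, novel_206 and novel_586. novel_206 passed through the female November and December libraries only and novel_586 through both December libraries only, all of them catagen, so the filter itself chose them for a high level there. An entry was called where its p, adjusted over the 300 by Benjamini-Hochberg, was under 0.05 and its change at least 2-fold. In bulk libraries, fewer cells of a type and less of the RNA per cell cannot be told apart. TMM and plain library totals gave different levels for the seasons: with library totals the median log2 fold change of all 300 entries moved from 0.07 to -0.46 from May to September, from 0.08 to -0.47 from May to catagen, from 0.02 to -0.29 from telogen to September, from 0.00 to 0.35 from catagen to telogen and from 0.00 to 0.19 from telogen to May. Values with library totals are therefore given beside those with TMM and are read against these medians.

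Over the 6 pairwise comparisons, 5 candidates were called at least once (novel_704, novel_587, novel_98, novel_494 and novel_586), or 4 without novel_586, where 28.3% of all tested entries were called. From May to September 2 of 20 were called, against 18.3% of all tested entries, and both were higher in September (9.67% of all tested). Between telogen and May 1 was called (2.33% of all tested), from telogen to September 2 (9.33%), from catagen to telogen 3, or 2 without novel_586 (10.7%), and from May to catagen 2 (16.7%). From September to catagen 0 were called of all entries (0%). By the adjusted p alone, 7 of 20 passed from May to September (34% of all tested), 1 from telogen to May (5.33%), 5 from telogen to September (25.3%), 4 from catagen to telogen (35%) and 5 from May to catagen (37%). From September to catagen 3 of 20 candidates and 23 of the 300 had an unadjusted p under 0.05 (edgeR). DESeq2 called 0 candidates there with the fold limit, and 0.333% of all tested entries. With no fold limit, 8 candidates passed in at least 1 comparison (55.3% of all tested), and 7 differed among the 4 groups in a single test of any difference (47.3% of all tested). These 7 were novel_54, novel_587, novel_98, novel_100, novel_494, novel_704 and novel_131, and the count was 4 without the female May library. With library totals 6 candidates passed that single test, 5 of them among these 7, against 153 of the 300 entries. On that scale novel_131 (adjusted p = 0.674, edgeR) and novel_494 (0.0682) missed the threshold, and novel_157 (0.0120) passed it. The counts for catagen to telogen, for no fold limit and for at least 1 comparison include novel_586. With library totals, 3 were called from telogen to September (novel_587 higher, novel_54 and novel_176 lower), against 14% of all tested entries. From May to catagen 3 were called on that scale (novel_704 higher, novel_100 and novel_157 lower), against 27.3%.

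novel_704 was low in May and high in September and catagen. Its TPM was 19.4, 23.9, 10.2 and 22.5 in telogen, 7.25 and 3.83 in May, 41.8 and 31.5 in September, and 50.6, 41.5, 32.7 and 47.0 in catagen. Both May libraries, with 30 and 12 counts, lay below all 10 others, and no telogen library reached the lowest September or catagen library. From May to September it rose by 3.22 on the log2 scale (standard error 0.43, adjusted p = 0.000639, edgeR). The rise from May to catagen was 3.48 (standard error 0.41, adjusted p = 0.000233). With library totals these were 2.70 and 2.92, both still called.

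The other contrasts of novel_704 were smaller. It fell by 1.93 on the log2 scale from telogen to May (standard error 0.39, adjusted p = 0.022, edgeR), a call that was lost without the female May library (adjusted p = 0.0615), the male May library (0.339) or the male February library (0.0573). Telogen was lower than catagen by -1.56 (standard error 0.27, adjusted p = 0.00145, edgeR), and this call held under all 21 alternatives run. From telogen to September it rose by 1.30 on the log2 scale (standard error 0.32, adjusted p = 0.0124, edgeR), 0.95 and under the fold limit with library totals, and without a call when the female September library was left out (1.02, adjusted p = 0.152). September and catagen differed by 0.26 (standard error 0.32, adjusted p = 0.914, edgeR).

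novel_587, the third most abundant candidate, was lowest in telogen. Its TPM was 67.4, 95.1, 54.6 and 143.2 in telogen, 154 and 129 in May, 168 and 208 in September, and 166, 152, 180 and 124 in catagen. The male March library, at 143.2, lay within the catagen range, while the other 3 telogen libraries lay below every library of the other months. By edgeR, the log2 fold change from catagen to telogen was -1.18 (standard error 0.22, adjusted p = 0.00211) and that from telogen to September 1.42 (standard error 0.26, adjusted p = 0.00285). With library totals the values were -0.79, under the fold limit, and 1.06, still called.

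novel_98 moved in the same direction as novel_704 from May to catagen, over a smaller range. Its TPM was 77.8, 79.3, 65.0 and 99.0 in telogen, 78.1 and 71.4 in May, 108 and 91.3 in September, and 128, 98.2, 109 and 114 in catagen. All 4 catagen and both September libraries were above both May libraries. The log2 fold change from May to catagen was 1.15 (standard error 0.19, adjusted p = 0.00107, edgeR). It was 0.59 with library totals, with an adjusted p of 0.0281 but under the fold limit. Telogen was lower than catagen by -0.86 (standard error 0.15, adjusted p = 0.00145), short of the fold limit, and groups overlapped through the male March library.

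novel_494 was highest in the female September library. Its TPM was 40.3, 68.9, 51.8 and 65.1 in telogen, 36.3 and 46.6 in May, 103 and 65.1 in September, and 44.6, 30.9, 65.1 and 42.3 in catagen. Both September libraries lay above both May libraries, but the male September library was not above the female December library and was below the male February library. From May to September it rose by 1.57 on the log2 scale (standard error 0.33, adjusted p = 0.00438, edgeR) and 1.02 with library totals. The call was lost without the female September library (1.13, adjusted p = 0.0604) or the female May library (1.15, adjusted p = 0.0627).

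novel_586 is a rare candidate with 3 to 29 counts per library. Its TPM was 1.21, 0.68, 0.79 and 2.66 in telogen, 3.14 and 2.23 in May, 4.07 and 0.59 in September, and 2.03, 1.29, 5.11 and 5.63 in catagen. Both December libraries were the highest, while both November libraries overlapped with telogen. The log2 fold change from catagen to telogen was -1.80, and -1.45 with library totals, which is given as a description and not as a test, since novel_586 was tested only because of its level in December. It met the call rule with TMM but not with library totals. It also missed the rule when the female February, male February, female March, female May or male May library was left out, and without either December library it no longer passed the filter.

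**Figure D3:**
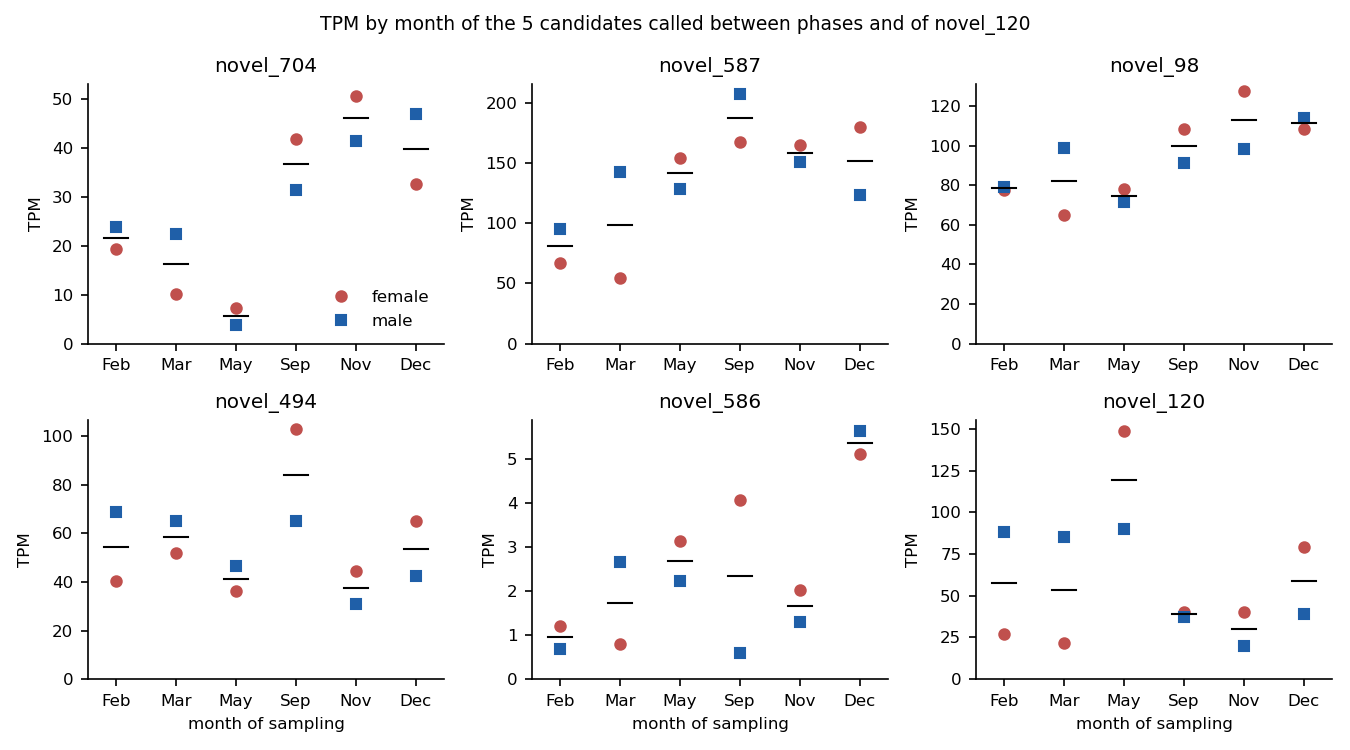
TPM (y axis, linear from 0) by month of sampling (x axis) for the 5 candidates called between phases and for novel_120, with 1 circle for the female and 1 square for the male library and a bar at their mean. novel_704 has its 2 lowest values in May, at 7.25 and 3.83, and its highest, 50.6, in the female November library.

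The most abundant candidates that were not called still differed in season by the adjusted p alone in the case of novel_54 and novel_100, which were highest in May. The TPM of novel_54 was 306, 424, 410 and 408 in telogen, 477 and 498 in May, 159 and 185 in September, and 253, 231, 257 and 239 in catagen. May, telogen, catagen and September followed in this order with no overlap between groups in TPM. After TMM, telogen (304 to 394) overlapped with May (382 and 387) and with the female November library (312). The changes from telogen to May (0.14, adjusted p = 0.547) and from catagen to telogen (0.30, adjusted p = 0.0622) missed the threshold by edgeR, the second passing with library totals (0.66, adjusted p = 0.00251). From May to September novel_54 fell by 0.98 on the log2 scale (standard error 0.16, adjusted p = 0.00131, edgeR), just short of the fold limit, and by 1.50 with library totals, past it. From telogen to September it fell by 0.84 (adjusted p = 0.00253, edgeR), and by 1.17 with library totals, past the fold limit. It also fell from May to catagen by 0.43 (adjusted p = 0.0257, but 0.129 without the male May, 0.0539 without the male November and 0.0667 without the male December library). The difference between September and catagen, 0.55, had an adjusted p of 0.271 by edgeR and of 0.0114 by DESeq2, under the fold limit in both. The change from May to September passed the adjusted p under all 21 alternatives.

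The TPM of novel_100 was 64.8, 68.3, 82.9 and 93.6 in telogen, 134 and 128 in May, 37.8 and 54.3 in September, and 42.3, 48.7, 83.1 and 43.3 in catagen. Both May libraries lay above all others, and the female December library stood apart from the other 3 of catagen. It fell from May to September by 0.99 on the log2 scale (standard error 0.28, adjusted p = 0.0184, edgeR), and by 1.51 with library totals, past the fold limit. The adjusted p was 0.14 without the female September library and 0.0517 without the male May library.

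novel_71, the candidate with the highest mean TPM (322 ± 131, SD, n = 12 libraries), passed in no comparison. Its TPM was 243, 344, 144.3 and 450.96 in telogen, 631 and 415 in May, 216 and 285 in September, and 304, 204.8, 353 and 275 in catagen. The March libraries differed 3.12-fold between male and female, more than the means of May and September did, and the smallest adjusted p among its pairwise comparisons between phases was 0.186, for a log2 fold change of 0.66 from telogen to May (standard error 0.32, edgeR). With library totals it was lower in September than in May by -1.06 (adjusted p = 0.0631) and in catagen than in May by -0.88 (adjusted p = 0.0605), with no overlap in TPM in either case.

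The split into higher and lower candidates depended on the scaling. From May to September 7 candidates passed the adjusted p with TMM, 5 of them higher in September, against 18.7% of all tested entries (novel_587, novel_98, novel_494, novel_704 and novel_131). With library totals 7 passed as well, but only novel_494 and novel_704 were higher, and 5 were lower. The shares of all entries by direction were not counted on that scale. novel_131 shows this most plainly: its TPM was nearly constant, and after TMM it rose from May to September by 0.79 (standard error 0.23, adjusted p = 0.02, edgeR), against 0.27 (adjusted p = 0.367) with library totals. It also missed the threshold without the male March library or any of the 4 May and September libraries (adjusted p between 0.0502 and 0.258). Between catagen and telogen, 17 of the 20 were lower in telogen with TMM and 10 of the 20 with library totals. The shares of all 300 entries lower in telogen were not counted, so these counts are no result about the candidates. The candidates' median change was -0.35 against 0.00 over all tested entries with TMM, and 0.03 against 0.35 with library totals. Both counts and both candidate medians include novel_206 and novel_586. The filter chose these for a high level in catagen, so their direction here is no result. Relative to the median of all tested entries, the candidates' median change from May to September was 0.28 against 0.07 with TMM, and -0.25 against -0.46 with library totals.

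**Figure D4:**
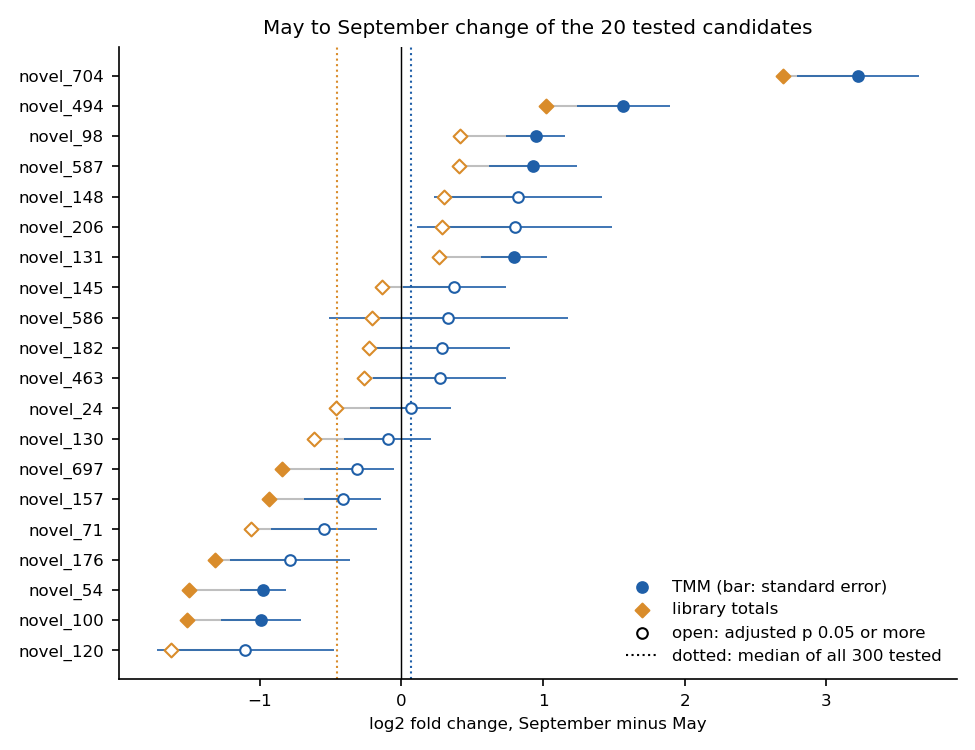
Log2 fold change from May to September (x axis) of the 20 tested candidates (y axis). Circles show TMM normalization with standard error bars, diamonds library totals, filled symbols an adjusted p under 0.05, and dotted lines the median of all 300 tested entries on each scale (0.07 and -0.46). All candidates lie further left with library totals, and novel_704 is the furthest right on both scales.

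The month of the highest level also moved with the scale. By mean TPM of each month, 11 of the 20 tested candidates were highest in May, 4 in September, 3 in November, and 1 each in March and December. After TMM the maximum fell in May for 7, in November for 6, in September for 5 and in December for 2. On both scales the counts include novel_206 under November and novel_586 under December. These 2 maxima came from libraries through which each passed the filter, so the selection favoured them. No tested candidate was highest in February on either scale. The month of the highest level was not counted over all 300 entries, so no count here is read as a trait of the candidates. With library totals the median of all entries was itself below May in September (-0.46) and in catagen (-0.47).

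Female and male libraries did not differ across the months for any candidate or any other entry (0 called, 0% of all tested, edgeR with month as a term; also 0 candidates by DESeq2). At an unadjusted p under 0.05 there was 1 candidate, novel_24, among 34 of the 300 entries. The TPM of novel_24 was higher in the male library in 5 of 6 months, with a log2 difference of 0.36 (standard error 0.16, adjusted p = 0.409). A p that misses the threshold does not show that the sexes were alike.

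The sexes differed in how novel_120 changed between catagen and telogen. In the female libraries its TPM was 40.5 and 79.4 in catagen and 26.8 and 21.8 in telogen, whereas in the male libraries it was 20.1 and 38.8 in catagen and 88.3 and 85.2 in telogen. It thus fell in female and rose in male libraries with no overlap in either sex. In May it was 149 (female) and 89.9 (male), and in September 40.4 and 37.1. By edgeR's quasi-likelihood test of the interaction, the changes differed by 2.60 on the log2 scale, male minus female (standard error 0.48, adjusted p = 0.0279, called for 1.33% of all tested entries). With library totals it was 2.85 (adjusted p = 0.0226). The call was lost without the female March (adjusted p = 0.126), the male November (0.157) or the female December library (0.0566). Each sex has 2 libraries per phase, and month and sex cannot be told apart from the animals in a single library.

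Of the tested candidates, 16 of 20 had an interaction of the same sign as novel_120, with a median of 0.40 against 0.12 over all 300 entries, and 8 of 20 had an unadjusted p under 0.05 against 64 of the 300. Of these 8, novel_182 had the opposite sign (-1.52, unadjusted p = 0.0147, adjusted p = 0.129, edgeR). Another of the 8, novel_206 (1.80, unadjusted p = 0.0402, edgeR), passed the filter only through female catagen libraries, which favours the sign of novel_120. Both novel_206 and novel_586, which the filter chose for its level in December, are counted in the 16 and in the candidates' median. The share of all 300 entries with the sign of novel_120 was not counted. Among the rest of the 8, novel_148 had a TPM of 1.77 in the female March library, 9 counts, and of 15.2 in the male one. Its interaction was 1.94 (standard error 0.65, adjusted p = 0.129, edgeR). For novel_463 the values in March were 2.55 and 9.68, with an interaction of 1.43 (adjusted p = 0.129).

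The miRNAs of epithelium moved between the libraries of a month as well. Their sum was a TPM of 57929 to 96687 in telogen, 81375 to 88411 in May, 56735 to 72600 in September and 67759 to 94096 in catagen, from 6 listed entries with none at 0. It was higher in the male library in February, March and September and in the female library in May, November and December. novel_71 and novel_587 were higher in that same library in all 6 months, which 5.78% of all tested entries outside the list were. novel_120 and novel_148 were so in 5 of 6 months, with September the exception, and novel_100, novel_130 and novel_206 in 5 of 6. For novel_98, novel_704 and novel_697 the library with the higher erythrocyte sum (2 entries, a TPM of 27.9 to 115 in telogen, 24.6 to 45.9 in May, 16.6 to 28.3 in September and 5.41 to 26.4 in catagen) was the one with the higher TPM in all 6 months, as for 4.03% of all tested entries outside that list. For novel_131 it was the library with the higher leukocyte sum (4 entries, 393 to 664 over all libraries) in all 6 months. The share for that list, 0.338%, is novel_131 itself, 1 of 296 tested entries outside it. The values of novel_131 spread no more than counting error alone would give (index 0.673), so this match carries little weight. These comparisons were chosen after the values were seen, and the part of these cell types in the results was not tested.

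**Figure D5:**
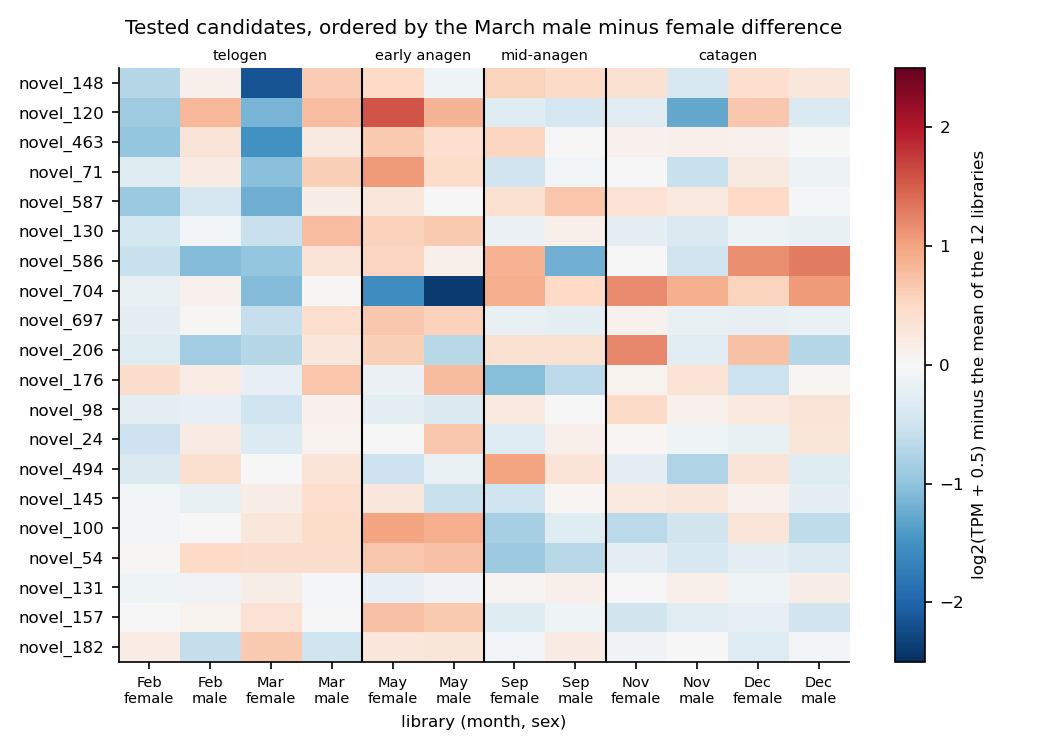
Log2(TPM + 0.5) of the 20 tested candidates (rows) in the 12 libraries (columns, by month and sex), minus each row's mean over the libraries, with rows ordered by the male minus female difference in March. novel_148, novel_120 and novel_463 at the top are pale or red in the male and blue in the female March library, and novel_704 is blue in both May libraries, with the deepest shade in the male one.

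Some candidates shared their course over the libraries. In log2 TMM-normalized CPM over the 12 libraries, novel_98 and novel_704 had a Pearson correlation of 0.93, novel_148 and novel_463 of 0.89, and novel_71 and novel_120 of 0.85. novel_100 and novel_704 ran opposite, at -0.82. Over all 190 pairs of tested candidates the median was 0.13, and 4.21% were above 0.8, against 0.00 and 3.57% over all pairs of tested entries. These correlations share library depth and normalization. With log2(TPM + 1) the correlation of novel_98 with novel_131 fell from 0.82 to 0.26.

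For each called candidate, the 3 tested entries with the most similar course were taken by the same correlation. For novel_704 these were miR-151-3p (0.94), miR-218 (0.94) and miR-877-5p (0.94). For novel_587 they were miR-296-3p (0.95), miR-23b-5p (0.93) and miR-532-5p (0.93), and for novel_98 miR-27a-5p (0.95), miR-106b-3p (0.94) and let-7f-5p (0.94). The closest for novel_494 was miR-374b-3p, at 0.77, then miR-877-5p (0.73) and miR-183 (0.71). novel_586 came closest to miR-222-3p (0.71), miR-500-3p (0.70) and miR-92a-5p (0.70), the weakest likeness of the 5. On the scale of log2(TPM + 1) its correlation with miR-222-3p was 0.32. In the order above, novel_494 had 0.68, 0.55 and 0.63 on that scale, and novel_98 had 0.88, 0.82 and 0.72. Those of novel_704 and novel_587 lay between 0.87 and 0.92. miR-877-5p had a mean TPM of 4.86.

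The other 17 candidates were too rare for the filter, with a mean TPM of 0.525 to 3.05. In a fit without the filter, 3 of them were called in at least 1 comparison: novel_566, novel_248 and novel_673, where 25.8% of all 376 entries were. In the single comparisons, 16.8% of all 376 entries were called from May to September, 8.78% from telogen to September, 9.57% from catagen to telogen and 14.9% from May to catagen. With library totals in place of TMM, novel_218 was also called lower in September than in May (-1.59, adjusted p = 0.0434, edgeR). It was called lower in September than in telogen too (-1.66, adjusted p = 0.0316). On that scale novel_599 was called lower in catagen than in May (-2.62, adjusted p = 0.0341). The shares of all 376 entries for these comparisons were 22.6%, 10.6% and 24.5%. novel_248 had 4, 6, 3 and 13 counts in telogen, 17 and 11 in May, 3 and 4 in September, and 1, 1, 2 and 3 in catagen. Both May libraries exceeded every September and catagen library. From May to catagen it fell by 2.68 on the log2 scale (standard error 0.61, adjusted p = 0.00547, edgeR without the filter), and by 3.14 with library totals (adjusted p = 0.00281). It was also called lower in September than in May (adjusted p = 0.0419).

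novel_566 ran the other way, with 4, 12, 6 and 5 counts in telogen, 4 and 5 in May, 20 and 20 in September, and 7, 14, 13 and 16 in catagen. From telogen to September it rose by 1.72 on the log2 scale (standard error 0.45, adjusted p = 0.0193, edgeR without the filter) and that from May to September 2.06 (standard error 0.58, adjusted p = 0.0204). With library totals the latter was 1.58 (adjusted p = 0.0529). It was also called lower in telogen than in catagen, by -1.34 (adjusted p = 0.0266), and higher in catagen than in May, by 1.68 (adjusted p = 0.0336), and both of these were lost with library totals. novel_673, with the counts given above, was called lower in catagen than in May (adjusted p = 0.039), where 3 of 4 catagen libraries had 0 counts and the fourth had 1.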

How the data were processed

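Small RNA libraries of SHFs (12, with 1 of female and 1 of male goats per month) were analysed. After trimming, the authors aligned reads to CHIR_2.0, predicted candidates by miREvo and mirDeep2 and used Bowtie 0.12.9 for quantification. They deposited a raw count of every miRNA per library and its TPM, which equals the count scaled to the library total (CPM) to within 0.005. How reads matching several miRNAs were assigned is not given in the sources used here. Library totals ranged from 3135292 to 5788032 counts, so counting error limits the rare candidates.

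Counts were tested in R 4.3.3 with edgeR 4.0.16 (TMM, glmQLFit, glmQLFTest) on the 300 entries above 5 CPM in at least 2 libraries, with a term for the 4 groups, for month and sex, or for group by sex. Alternatives included DESeq2 1.42.0, other scalings and filters, sex as a block and leaving out each library. Each standard error is |log2 fold change| over √F. The fits were tested on simulated data.

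Candidates given in every library were those called in a pairwise comparison and the 5 highest and 5 lowest by mean TPM. novel_120, novel_131, novel_248 and novel_566, and values from single months of novel_148 and novel_463, were added after their values were seen. The members, lists and tests were chosen with earlier results of these data known.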

Additional observations from a re-analysis of the deposited data

Results flagged for a closer look

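The difference between the sexes in the change of novel_120 from catagen to telogen, 2.60 on the log2 scale (edgeR's quasi-likelihood test of the interaction, adjusted p = 0.0279), was taken up because it was tested as a difference between groups. Within groups of 4 libraries, 28 checks were made for a library set apart from the others by Dixon's ratio, of which chance gives about 1 in 20. The female February library had a TPM of novel_54 of 306, against 408 to 424 in the other telogen libraries. The female December library had a TPM of novel_100 of 83.1, against 42.3 to 48.7 in the other catagen libraries. The male December library had a TPM of novel_673 of 0.19, a single count, where the other catagen libraries had 0. With the other values tied at 0, any count gives a ratio of 1, so this check could decide nothing.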

How the results depend on the processing

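Called candidates from May to September numbered 2, but 4 with RLE normalization or DESeq2, 5 with library totals or a fit of only these groups, 6 without the filter or with filterByExpr, 7 without the filter and with library totals, and 7 with no minimum fold change, all including novel_704 and novel_494. With library totals 2 were higher and 3 lower in September, and 26.7% of all entries were called. That share was 20% with RLE, 20.3% with DESeq2, 23.3% with only these groups, 16.8% without the filter, 18.6% with filterByExpr and 22.6% without the filter and with library totals. Leaving out 1 telogen or catagen library gave 2 to 4 called candidates (17.7% to 23.4% of all entries). There were 4 without the female March (20.9%), the male March (23.4%) or the male December library (19.7%). The ranges of the pairwise comparisons leave out the fits without a May or September library, which keep 1 library in that group. From telogen to May the 1 call became 0 in a fit of only these groups. Leaving out 1 telogen or catagen library gave 0 to 1 there (0.338% to 9.15% of all entries). From telogen to September the 2 calls became 4 with filterByExpr, 5 without the filter and with library totals, and 5 with no minimum fold change. Without 1 telogen or catagen library there were 2 to 4 (8.75% to 12.5% of all entries). The 4 came when the male February library was left out (10.1%). From catagen to telogen 3 became 1 with library totals, with or without the filter. Without 1 telogen or catagen library there were 2 to 4 (7.67% to 12.4% of all entries). From May to catagen 2 became 5 without the filter (14.9% of all entries) and 4 with filterByExpr (15.4%). There were 6 without the filter and with library totals (24.5%), and 5 with no minimum fold change (37%). Of all entries, 10.1% were called from telogen to September with filterByExpr and 10.6% without the filter and with library totals. The share there with no minimum fold change was 25.3%. From catagen to telogen it was 16% with library totals, and 13.6% also without the filter. From telogen to May it was 0% in the fit of only these groups. The test among the 4 groups gave 7, and 4 to 8 without 1 library (4 without the female May library). The interaction gave 1, and 0 to 3 without 1 library (in February, 3 when the female and 2 when the male one was left out). The shares of all entries without 1 library were not taken for the test among the 4 groups and for the interaction. Their ranges are therefore no result about the candidates alone. Between September and catagen, and between the sexes, every alternative gave 0 candidates. Of all entries, at most 0.339% were called from September to catagen. Sex as a block changed no count by over 1.5 times. Requiring 100 counts in all libraries left 7 candidates of 17. Without novel_54, which had the most counts, the shares were 0.127% in May, 0.0911% in September, 0.0906% in catagen and 0.0843% in telogen. Where a tested candidate had an adjusted p under 0.05 in the main fits (edgeR), the sign of its change turned under no alternative run. Changes named only from other fits were not followed in this way. The fits without the filter that also used library totals, and all alternatives of the interaction, were chosen after seeing the data. Depth limits the 17 untested candidates, and 2 libraries each limit May and September.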
